A study of Mus musculus with 10 samples.

Results

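The genes described here encode Wnt ligands, their frizzled receptors, the R-spondins, secreted Wnt inhibitors and a group of feedback or target genes, measured in mouse femur after 24 h of hindlimb unloading. Members were taken by gene name in the array files: every name that starts with Wnt, Fzd or Sfrp and a number, Rspo1 to Rspo4, and Frzb, Wif1, Dkk3, Axin2, Lef1, Nkd1, Nkd2 and Apcdd1. This rule used no measured value, but it was set with earlier results of these data known. It found 63 of the 41174 gene probes, for 45 genes: 19 ligands, 10 frizzled receptors, 7 secreted inhibitors, 4 R-spondins and 5 feedback or target genes. Tests were run on probes that the scanner software set well above background on 4 or all 5 arrays of either group, which held for 60 member probes of 44 genes. Each gene is represented by its tested probe with the highest mean signal.

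RNA came from the femur of 10 male ICR mice aged 6 months, an outbred stock, with 1 one-colour array per animal; the labels do not say whether marrow was removed. The 5 control mice moved freely in their cages for 24 h. The 5 unloaded mice hung by the tail, head down, for the same 24 h, so that the hind legs carried no weight. All 10 mice had individual cages, and the labels name no transgene and no agent. Body weight averaged 28.6 g ± 1.78 (SD, n = 5) in the control group and 27.3 g ± 1.72 (SD, n = 5) in the unloaded group.

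Wnt proteins are secreted, lipid-modified signals that bind frizzled receptors together with the co-receptors Lrp5 or Lrp6. In the canonical branch this stabilises beta-catenin, which joins Tcf and Lef factors in the nucleus and switches on targets such as Axin2, while R-spondins strengthen the signal by sparing the receptors from degradation. Sfrp proteins, Frzb and Wif1 bind Wnt ligands outside the cell, and in bone the pathway is known for driving osteoblast formation and for its part in the response to mechanical load.

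Signals are given as log2 values after subtraction of the array's own 75th percentile. A positive difference means a higher mean in the unloaded group. Between 89.8% and 95.5% of spots per array were well above background. The lowest shares of spots above background were those of control 5 and unloaded 5. Slide 1 held controls 1 to 4, slide 2 held control 5 and unloaded animals 1 to 3, and slide 3 held unloaded animals 4 and 5, so group and slide are largely confounded. All 14 osteoblast and osteocyte markers were tested, Bglap and Sost among them, and their mean level was 3.03 ± 0.07 (SD, n = 5) in control and 3.09 ± 0.19 (SD, n = 5) in unloaded bone. Cartilage markers averaged 2.35 ± 0.29 and 2.63 ± 0.25, skeletal muscle markers 3.98 ± 0.54 and 3.76 ± 0.44, and neutrophil markers 5.74 ± 0.14 and 5.67 ± 0.10 (SD, n = 5 each, control first), so RNA of muscle and marrow cells was measured beside that of bone. In such a bulk sample, fewer cells of a type and less RNA per cell cannot be told apart.

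Promoter sequence is shown for 3 members on which the results turn: Sfrp2, the member with the largest difference, Frzb, an inhibitor that varied with the cartilage markers, and Axin2, the classic feedback target. Each is the 250 bases before the RefSeq start on the gene's strand, 5′ to 3′, with GRCm38.p6 coordinates: chr3:83766071-83766320 on the plus strand for Sfrp2, chr2:80447397-80447646 on the minus strand for Frzb and chr11:108920099-108920348 on the plus strand for Axin2. Capitals mark the Tcf/Lef core CTTTGA read on either strand.

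Sfrp2: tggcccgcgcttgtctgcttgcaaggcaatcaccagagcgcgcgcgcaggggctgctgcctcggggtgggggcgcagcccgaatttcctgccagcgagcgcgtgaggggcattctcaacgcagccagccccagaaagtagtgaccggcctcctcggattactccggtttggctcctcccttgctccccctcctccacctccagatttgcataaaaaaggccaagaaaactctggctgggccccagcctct

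Frzb: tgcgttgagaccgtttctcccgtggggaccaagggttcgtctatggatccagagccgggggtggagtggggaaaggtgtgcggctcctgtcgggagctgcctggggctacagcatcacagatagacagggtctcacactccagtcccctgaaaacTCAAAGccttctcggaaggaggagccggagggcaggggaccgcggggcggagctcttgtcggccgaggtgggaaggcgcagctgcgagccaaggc

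Axin2: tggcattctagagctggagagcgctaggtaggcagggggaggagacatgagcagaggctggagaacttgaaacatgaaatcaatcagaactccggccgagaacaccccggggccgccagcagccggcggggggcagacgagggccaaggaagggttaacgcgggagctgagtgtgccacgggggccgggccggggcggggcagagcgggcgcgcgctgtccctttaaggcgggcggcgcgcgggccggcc

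The Frzb window held 1 Tcf/Lef core, on the opposite strand and 89 bases before the start. The windows of Sfrp2 and Axin2 held none. Over all 32851 RefSeq promoter windows of this length, 13.8% held a Tcf/Lef core, and 5 of the 37 windows of the 31 members with an entry did (13.5%). The Sox core ACAATG, also read on either strand, was in 10.7% of all windows and in 3 of the 37 member windows (8.11%). A match is a string of letters and not a measured binding site.

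No member passed the test. At an adjusted p below 0.05 in limma's test, 0 of 44 member genes were called, against 1 of 18955 genes in all (0.00528%; 0.00259% of the 38629 probes tested). The gene called was Ddit4, an inhibitor of mTOR signalling and no member, at 1.17 (SE 0.12, limma adjusted p = 0.00794). Adjusted p for the members ran from 0.218 to 0.975. At an unadjusted p below 0.05, 8 of 44 members stood out (18.2%), beside 15.8% of all genes, a share near the background. Of these, 7 had a higher mean after unloading (9.9% of all genes did so) and 1 a lower mean (5.87% of all genes). The 7 were Wnt3, Wnt2, Fzd9, Fzd8, Fzd10, Fzd5 and Frzb, and the lower gene was Sfrp2. Under median scaling the split of members at that threshold was 4 higher and 3 lower, under quantile normalisation 3 and 3, and with normexp background correction 3 and 1. The shares of all genes change with these settings too, so these splits cannot be set against the shares above.

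The member differences lay between -0.58 and 0.46, with a median of 0.12 beside 0.05 over all genes, and a median SE of 0.13. A positive difference was found for 36 of 44 members (81.8%), beside 60.4% of all genes. That count depended on the scaling, with 28 positive under median scaling, 30 under quantile normalisation and 32 with normexp. Counts under these alternatives, here and by role below, cannot be set against the 60.4%, which belongs to the main scaling. The 2 groups of arrays did not overlap for 1 member, Sfrp2 (2.27%), beside 3.3% of all genes (1.5% with higher and 1.8% with lower values in every unloaded animal). The median of the members on single arrays lay between -1.42 and -1.25 in control and between -1.41 and -1.10 in unloaded bone, so the groups overlapped.

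**Figure D1:**
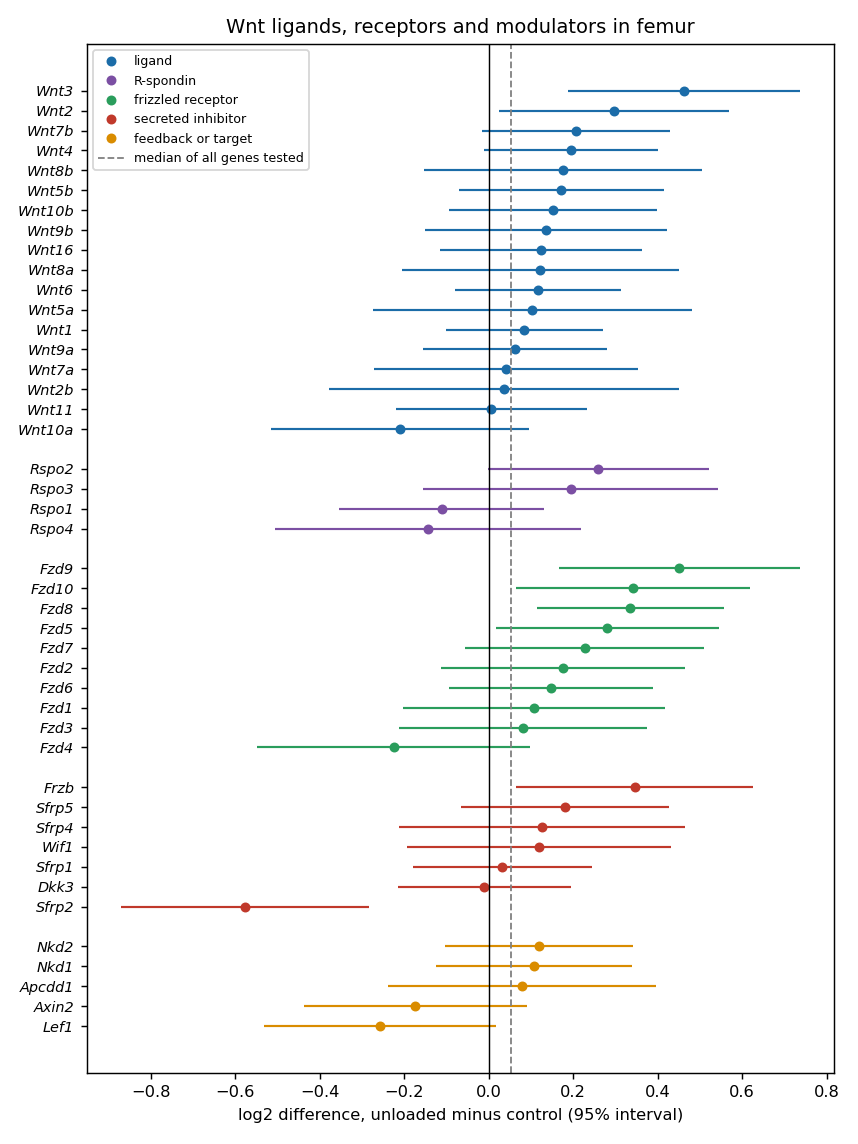
Log2 difference (unloaded minus control) of the 44 tested member genes, ordered by role, with the 95% interval of limma's fit (n = 5 arrays per group) and a dashed line at the median of all genes, 0.05. Sfrp2 at -0.58 lies apart from the other members on the negative side, and 17 ligands and 9 frizzled receptors lie right of 0, where 12 and 8 did under median scaling.

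Among the ligands, 17 of 18 tested genes had a positive difference (12 under median scaling or quantile normalisation and 14 with normexp), with a median of 0.12, and 2 had an unadjusted p below 0.05 (11.1%, beside 15.8% of all genes). Wnt3, a canonical ligand, had the largest difference of any member on the positive side. Its signal was -2.40, -2.48, -2.76, -2.45 and -2.46 in controls 1 to 5 and -1.99, -2.48, -1.79, -2.06 and -1.91 in unloaded animals 1 to 5. All unloaded animals but the second were above every control. The difference was 0.46 (SE 0.13, 95% interval 0.19 to 0.74, limma adjusted p = 0.218). The other tested Wnt3 probe gave 0.17.

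Wnt2, a ligand known from lung and vascular development, measured -1.71, -1.72, -1.62, -1.68 and -1.82 in the controls and -1.60, -1.44, -1.12, -1.77 and -1.14 in the unloaded animals. Unloaded animals 3 and 5 were highest and unloaded animal 4 lay within the control range. The difference was 0.30 (SE 0.13, limma adjusted p = 0.289). Wnt4, a ligand known from kidney development, was at -0.72, -0.68, -0.78, -0.59 and -0.84 in control and -0.56, -0.36, -0.65, -0.41 and -0.65 in unloaded bone. Here 3 unloaded animals lay above all controls and the other two within the control range, with a difference of 0.19 (SE 0.10, limma adjusted p = 0.326).

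For Wnt5b, a non-canonical ligand of the growth plate, control animals gave -0.01, 0.26, 0.23, 0.09 and -0.04, and unloaded animals 0.28, 0.62, 0.15, 0.22 and 0.13. Unloaded animal 2 was highest and the groups overlapped, for a difference of 0.17 (SE 0.11, limma adjusted p = 0.426). The second Wnt5b probe gave 0.25.

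The remaining ligands had differences from -0.21 for Wnt10a (SE 0.14) to 0.21 for Wnt7b (SE 0.10), with limma adjusted p of 0.440 and 0.329. Wnt8b (0.18), Wnt10b (0.15), Wnt9b (0.14), Wnt16, Wnt8a and Wnt6 (0.12 each) and Wnt5a (0.10) had limma adjusted p between 0.480 and 0.763. Differences were smaller for Wnt1 (0.08), Wnt9a (0.06), Wnt7a (0.04), Wnt2b (0.04) and Wnt11 (0.01). Wnt5a, the main non-canonical ligand, was highest in unloaded animal 1 at -1.10, while the other four unloaded animals lay between -2.18 and -1.96, beside -2.14 to -1.79 in control. Wnt2b was well above background on 3 control and 4 unloaded arrays. Wnt3a was well above background on 0 of 10 arrays and was not tested. 4 pairs of members are next to each other in the RefSeq gene order of GRCm38.p6. They are Wnt6 with Wnt10a (0.12 and -0.21), Wnt9b with Wnt3 (0.14 and 0.46), Wnt10b with Wnt1 (0.15 and 0.08) and Wnt3a with Wnt9a.

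R-spondins, which bind Lgr receptors, had differences in both directions, 2 of 4 positive, and none had an unadjusted p below 0.05. Rspo2 was at -2.01, -2.13, -2.56, -2.13 and -2.37 in control and -1.73, -1.92, -2.15, -2.06 and -2.04 in unloaded bone. Unloaded animals 1 and 2 lay above all controls, and the other three overlapped them. The difference was 0.26 (SE 0.12, 95% interval -0.0013 to 0.52, limma adjusted p = 0.311), and 0.06 at the second probe.

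Rspo3 was at -1.64, -1.56, -1.85, -1.55 and -2.10 in control and -1.33, -1.72, -1.61, -1.98 and -1.09 in unloaded bone. Its difference of 0.19 (SE 0.16, limma adjusted p = 0.521) rested on control 5, the lowest control, and unloaded animal 5, the highest of all, and without both it was -0.01. Rspo1 gave -0.11 (SE 0.11) and Rspo4 -0.14 (SE 0.17), and the second Rspo4 probe gave 0.09.

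Of the 10 frizzled receptors, 9 had a positive difference (8 under median scaling, quantile normalisation or normexp), with a median of 0.20, and 4 had an unadjusted p below 0.05 (beside 15.8% of all genes; 60.4% of all genes had a positive difference). Fzd9, a receptor with a known role in osteoblast mineralisation, had the largest. Its signal was -1.28, -0.94, -1.30, -1.28 and -1.49 in control and -0.87, -0.88, -0.73, -1.11 and -0.44 in unloaded bone. Control 2 was the highest control and lay above unloaded animal 4 alone. The difference was 0.45 (SE 0.13, 95% interval 0.17 to 0.74, limma adjusted p = 0.238).

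Fzd8 was at -1.93, -2.14, -2.07, -2.13 and -1.87 in control and -1.90, -1.64, -1.48, -1.77 and -1.66 in unloaded bone. Unloaded animal 1 was the only one within the control range. The difference was 0.34 (SE 0.10, limma adjusted p = 0.240), and 0.01 at the second Fzd8 probe. Fzd10 was at -2.38, -2.66, -2.95, -2.57 and -2.51 in control and -2.23, -2.61, -2.10, -2.34 and -2.08 in unloaded bone, with unloaded animal 2 among the controls and the other four above them. Its difference was 0.34 (SE 0.13, limma adjusted p = 0.262), and its second probe, above background on 4 arrays of each group, gave -0.07.

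Fzd5 had a difference of 0.28 (SE 0.12, limma adjusted p = 0.296), with 0.18 at its second probe, and within slide 2 it was -0.04. Fzd7 gave 0.23 (SE 0.13) and -0.03 at its second probe, Fzd6 0.15, Fzd1 0.11 and Fzd3 0.08. Fzd4, the receptor for norrin in blood vessels, was the receptor with a negative difference, at -0.23 (SE 0.15, limma adjusted p = 0.434), and within slide 2 it was 0.25. Fzd2 was at -1.59, -0.99, -1.29, -1.26 and -1.66 in control and -1.04, -0.99, -1.19, -1.37 and -1.32 in unloaded bone. The groups overlapped over most of their range, for a difference of 0.18 (SE 0.13, limma adjusted p = 0.484). The second probes of Fzd2, on 0 of 10 arrays above background, and of Fzd3, on 3 of 10, were not tested.

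Among the secreted inhibitors, 5 of 7 had a positive difference (4 under median scaling; 60.4% of all genes) and 2 had an unadjusted p below 0.05 (15.8% of all genes), 1 in each direction. Sfrp2, which encodes a frizzled-related decoy made by mesenchymal cells, had the largest difference of all members. Its signal was -0.67, -0.56, -0.65, -1.02 and -1.31 in control and -1.32, -1.45, -1.56, -1.37 and -1.39 in unloaded bone. Every unloaded animal was below every control, but control 5 and unloaded animal 1 were next to each other. Means were -0.84 ± 0.31 (SD, n = 5) and -1.42 ± 0.09 (SD, n = 5), a difference of -0.58 (SE 0.14, 95% interval -0.87 to -0.28, unadjusted p = 0.000885, limma adjusted p = 0.218), or 1.49-fold lower.

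The Sfrp2 values also followed the slides. The 4 controls of slide 1 averaged -0.72, the control on slide 2 was at -1.31, the 3 unloaded animals beside it averaged -1.44, and the 2 unloaded animals of slide 3 averaged -1.38. Within slide 2, the only slide with both groups, the difference was -0.13 (limma adjusted p = 1.00), with 1 control. Leaving out each array in turn kept it between -0.69, without control 5, and -0.51, without control 2. Group and slide cannot be told apart for this gene.

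**Figure D2:**
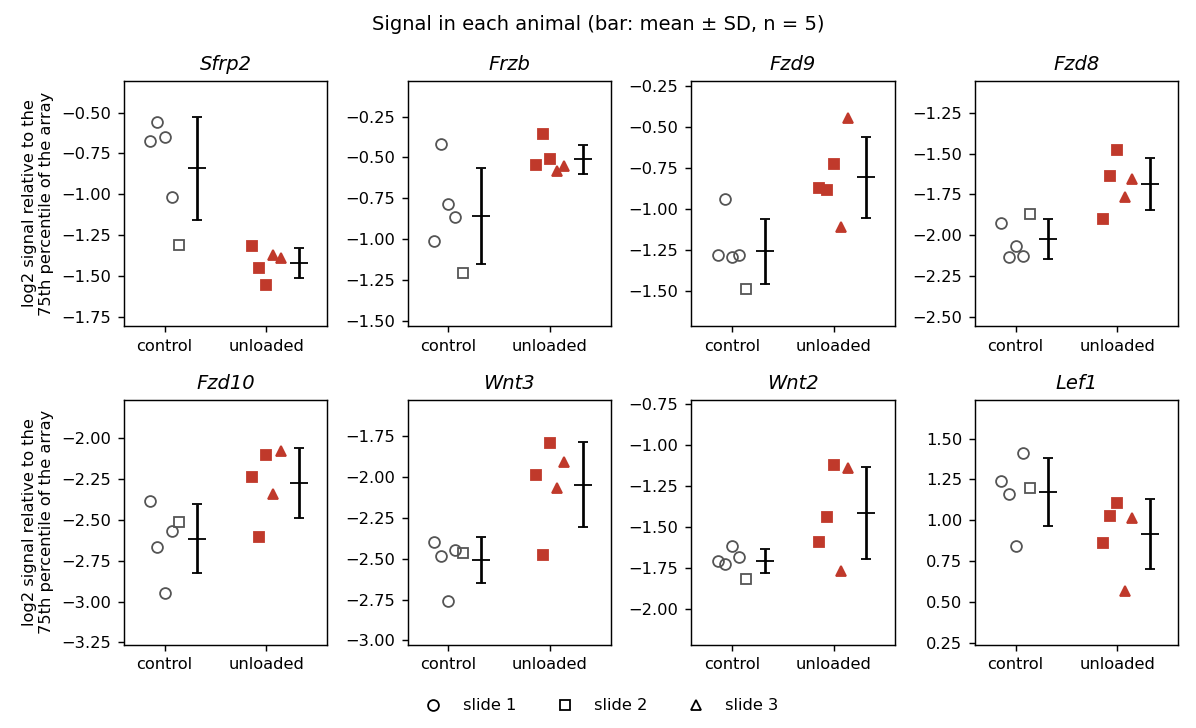
Log2 signal relative to the array's 75th percentile in each animal for 8 members, with the mean ± SD (n = 5) beside each group and the marker shape giving the slide. For Sfrp2 the single control on slide 2, at -1.31, lies beside the unloaded animals and apart from the 4 controls of slide 1, while for Fzd9 and Frzb it is the lowest value.

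Frzb, a frizzled-related inhibitor made by cartilage cells, was at -1.01, -0.42, -0.79, -0.86 and -1.21 in control and -0.55, -0.36, -0.51, -0.59 and -0.55 in unloaded bone. The unloaded animals lay close together, and control 2 alone among the controls was in their range. The difference was 0.35 (SE 0.13, 95% interval 0.07 to 0.63, limma adjusted p = 0.262). Sfrp5, a further family member, was at -1.87, -2.08, -2.10, -2.01 and -2.11 in control and -2.06, -1.99, -1.98, -1.69 and -1.54 in unloaded bone. Unloaded animals 4 and 5, both on slide 3, were the only ones above all controls, and the difference was 0.18 (SE 0.11, limma adjusted p = 0.411).

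The remaining inhibitors had intervals that included 0, as did Sfrp5 (-0.06 to 0.43). Sfrp4, known to be needed for cortical bone thickness, averaged 2.09 ± 0.25 and 2.21 ± 0.31 (SD, n = 5 each, control first), a difference of 0.13 (SE 0.16). Wif1, which binds Wnt ligands directly, averaged 1.68 ± 0.31 and 1.80 ± 0.18 (SD, n = 5 each), a difference of 0.12 (SE 0.15). Their 95% intervals ran from -0.21 to 0.47 and from -0.19 to 0.43. Sfrp1 gave 0.03 (SE 0.10) and Dkk3 -0.01 (SE 0.10), with intervals from -0.18 to 0.24 and from -0.22 to 0.19.

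The feedback and target genes included none with an unadjusted p below 0.05 at the main probe. Lef1, the nuclear partner of beta-catenin, also made by lymphoid cells, was at 1.24, 1.16, 0.84, 1.41 and 1.20 in control and 0.86, 1.02, 1.11, 0.57 and 1.01 in unloaded bone. Control 3 lay among the unloaded animals and the other four controls above them. The difference was -0.26 (SE 0.13, limma adjusted p = 0.330), with -0.22 and -0.06 at its other probes. B cell markers, given here because Lef1 is made by developing B cells, averaged 1.56 ± 0.11 and 1.35 ± 0.24 (SD, n = 5 each, control first). Of these 8 markers, 6 had a negative difference and 2 a positive one. The largest was that of Pax5, -0.79, with an SD of 0.10 in control and 1.05 in unloaded bone. T cell markers averaged -1.14 ± 0.08 and -1.02 ± 0.07 (SD, n = 5 each). Their part in the Lef1 values was not tested.

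Axin2, a scaffold of the beta-catenin destruction complex and a direct target of the pathway, was dim, at -3.21, -2.94, -3.34, -3.26 and -3.39 in control and -3.26, -3.43, -3.11, -3.59 and -3.62 in unloaded bone. Unloaded animals 4 and 5 were lowest and the groups overlapped. The difference was -0.17 (SE 0.12, limma adjusted p = 0.455), and 0.12 within slide 2. It was well above background on all 5 control and 4 unloaded arrays.

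Nkd1, an inhibitor of dishevelled, was at -0.42, -0.58, -0.68, -0.36 and -0.48 in control and -0.45, -0.59, -0.27, -0.52 and -0.15 in unloaded bone. Its relative Nkd2 was at -0.96, -1.20, -1.43, -1.19 and -0.97 in control and -1.0, -1.12, -0.98, -1.03 and -1.02 in unloaded bone. For both the groups overlapped widely, with differences of 0.11 (SE 0.11) and 0.12 (SE 0.10). Apcdd1, a membrane inhibitor of Wnt signalling, was at 1.51, 1.47, 1.35, 1.47 and 1.44 in control and 1.11, 1.54, 1.77, 1.23 and 1.97 in unloaded bone. The controls lay within a narrow band and the unloaded animals on both sides of it, with SDs of 0.06 and 0.36 and a difference of 0.08 (SE 0.15, limma adjusted p = 0.785). The second Apcdd1 probe gave 0.38 (unadjusted p = 0.0303, limma adjusted p = 0.283).

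Members with several tested probes numbered 15, and for 10 of them all probes had the same sign. The other five were Fzd10, Fzd7, Nkd2, Rspo4 and Wnt9a. Spread within groups was close to that of other genes, with a median SD of 0.21 for the members and 0.19 for all genes. Wnt1 had the lowest SD, 0.0838, and Wnt2b the highest, 0.36.

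Within slide 2, with 3 unloaded animals and 1 control, the values of single genes moved in both directions. Differences there were larger for Frzb (0.73), Fzd9 (0.66), Fzd2 (0.59), Rspo3 (0.55), Wnt2 and Rspo2 (0.43 each), Wnt5b (0.38) and Wnt4 (0.31). They were smaller for Wnt3 (0.38), Fzd8 and Fzd10 (0.20 each), Sfrp5 (0.10), Apcdd1 and Nkd1 (0.04 each) and Lef1 (-0.20), and Nkd2 was at -0.06. For these genes too the control rests on 1 array.

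Single arrays moved several of the smaller differences by over 1.5 times. The Wnt5b difference was 0.09 without unloaded animal 2, that of Sfrp5 0.10 without unloaded animal 5, and that of Lef1 -0.17 without unloaded animal 4. Fzd2 was at 0.27 without control 2 and 0.10 without control 5, and Axin2 at -0.10 without control 2. Rspo3 was at 0.10 without control 5, 0.08 without unloaded animal 5 and 0.30 without unloaded animal 4. Without control 3, Nkd1 was at 0.06 and Nkd2 at 0.05, and without unloaded animal 5 Nkd1 was at 0.05.

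Most member probes were dim, and dim genes as a whole had positive differences. All genes were put into 5 equal classes by mean signal. From the dimmest to the brightest class, the median difference of all genes was 0.14, 0.13, 0.08, -0.05 and -0.04, and 78.6%, 79.4%, 65.0%, 39.9% and 38.9% of genes had a positive one. The classes held 9, 22, 7, 3 and 3 members, with medians of 0.14, 0.12, 0.11, 0.03 and 0.12. The member median was below that of all genes in the 2 dimmest classes and above it in the other three.

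After the median of its own class was subtracted from each gene, the member median was 0.02 and 24 of 44 members were positive. On that scale Sfrp2 was at -0.71, Wnt3 and Fzd9 at 0.32 each and Axin2 at -0.32. Of the genes named as higher at an unadjusted p below 0.05, Wnt3 and Fzd9 stayed below it in a test with limma's SE. Wnt2 (0.16), Fzd8 and Fzd10 (0.20 each), Fzd5 (0.15) and Frzb (0.27) did not. On the lower side Sfrp2 stayed below it, and Axin2, Wnt10a (-0.34) and Rspo1 (-0.25) came below it as well. The excess of higher over lower members at that threshold was thus not kept on this scale. The share of all genes past the threshold on this scale is not given here, so the members cannot be set against it. The subtraction of class medians was chosen after seeing the data.

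**Figure D3:**
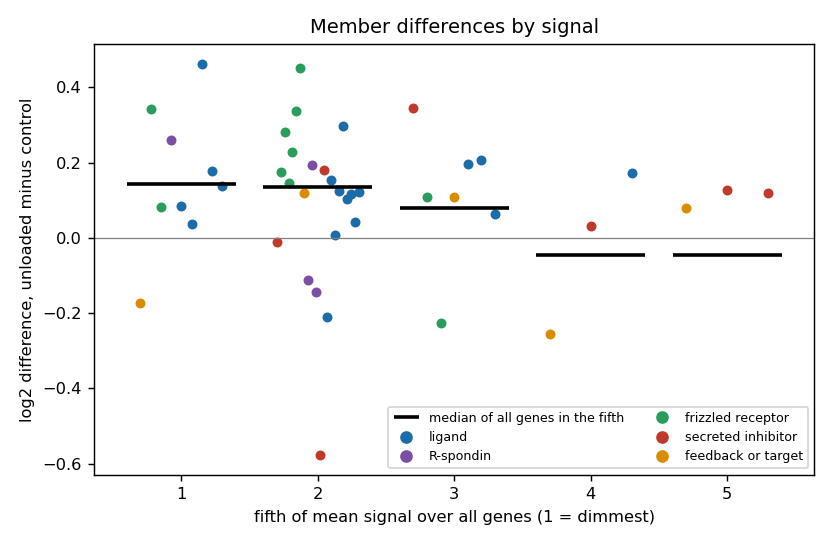
Log2 difference, unloaded minus control, of each tested member (points, coloured by role) in 5 equal classes of mean signal over all genes, with the median of all genes in the class as a black bar. The bars run from 0.14 in the dimmest class to -0.04 in the brightest, most members sit in the 2 dimmest classes around those bars, and Sfrp2 at -0.58 lies far below its class.

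Members were also compared with markers of cartilage, bone and muscle between animals of a group. The deviation of each of the 44 members from its group mean was set against that of the mean of a marker list, over 10 animals, for 3 lists and 132 pairs. With Benjamini-Hochberg adjustment over all pairs, 2 passed, both with the cartilage list. The permutations shuffled the 10 deviations freely across both groups, although removing group means ties the deviations of a group together. The permutation p-values are therefore too small, and more so where slide means were removed as well, so the 2 passes are not firm. Fzd2 varied with cartilage markers at r = 0.92 and rho = 0.96 (permutation p = 8.0e-05 for r, adjusted 0.0106). Without the 2 animals farthest from the median of the marker list r was 0.88.

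Frzb varied with the same markers at r = 0.85 and rho = 0.85 (permutation p = 0.00065 for r, adjusted 0.0429, and adjusted 0.129 for rho). Without the 2 farthest animals r was 0.64. Wnt5b had r = 0.85 and rho = 0.90 (permutation p adjusted 0.0845 for r), and 0.68 without the 2 farthest animals. With the muscle and bone lists r was 0.76 and 0.54 for Fzd2, 0.56 and 0.43 for Frzb, and 0.40 and 0.75 for Wnt5b. None of these pairs passed. Control 2 and unloaded animal 2 had the highest cartilage level of their groups, by 0.45 and 0.38 above the group mean, and control 5 and unloaded animal 5 the lowest, by -0.32 and -0.29. Fzd2 in control 2 and Frzb in control 2 lay 0.37 and 0.44 above their control means.

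With slide means removed, r was 0.86 for Fzd2, 0.85 for Frzb and 0.79 for Wnt5b, and no pair passed after adjustment (permutation p adjusted 0.0535 for Fzd2 and 0.0616 for Frzb). No pair passed under quantile normalisation either (r = 0.90 and 0.84). No slide held more than 4 arrays, and no correlation was computed within one. Over all genes 1.45% had an r with cartilage markers at least as large as that of Frzb in either direction. The median r was -0.09, and the members' median was -0.02. All 16 cartilage genes had a positive difference between the groups, from 0.10 for Matn1 to 0.51 for Ucma, and the list's level overlapped between groups, 2.03 to 2.80 in control and 2.34 to 3.01 in unloaded bone. Its part in the group differences of Fzd2, Frzb and Wnt5b was not tested.

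**Figure D4:**
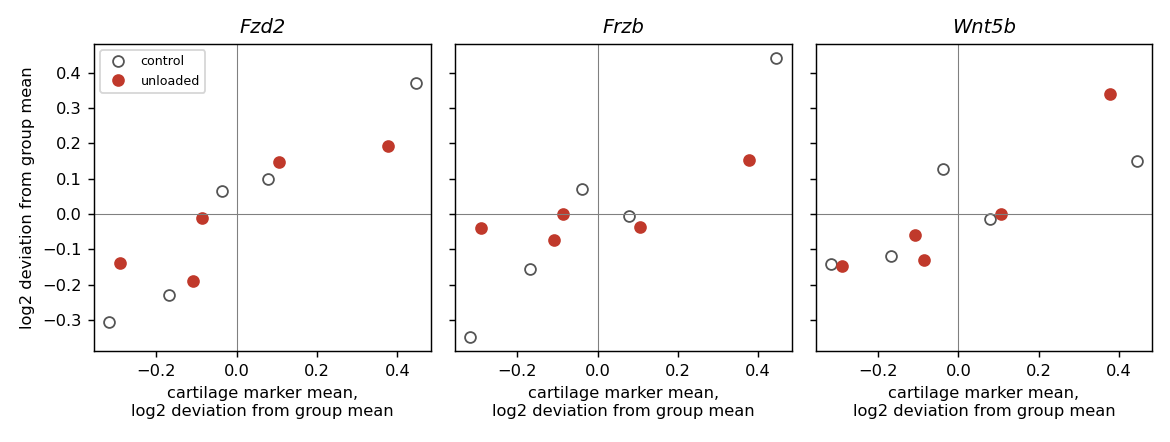
Deviation of each animal from its group mean, in log2 units, for the mean of 16 cartilage markers (horizontal axis) and for Fzd2, Frzb and Wnt5b (vertical axis), with open points for control and filled points for unloaded mice. Control 2, at 0.45 on the horizontal axis, and control 5, at -0.32, mark the ends, and r over the 10 animals was 0.92 for Fzd2 and 0.85 for both Frzb and Wnt5b.

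The rest of the pathway was read from 5 lists with 73 tested genes, none of which passed the test. An unadjusted p below 0.05 was found for 11 of the 73 (15.1%, beside 15.8% of all genes), 9 higher and 2 lower, and the median difference was 0.03. Co-receptors and other receptors had 5 of 14: Kremen1, a receptor for Dkk proteins, at 0.45, the Wnt5a receptors Ror1 at 0.43 and Ror2 at 0.23, the R-spondin receptor Lgr4 at 0.22, and the co-receptor Lrp6 at -0.33 (SE 0.13, limma adjusted p = 0.274). Other secreted inhibitors and secretion genes had 1 of 12, the inhibitor Dkk4 at 0.37, while Porcn, which attaches the lipid to Wnt proteins, was at 0.20, and Gpc3 and the Wnt-inactivating enzyme Notum at 0.18 and 0.14.

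Cytoplasmic relay genes had 2 of 19, the Apc partner Amer1 at -0.48 and the tankyrase Tnks at 0.38, with Apc2 at 0.19 and the kinase Gsk3a at -0.17. Nuclear factors had 2 of 15, Sox17, which antagonises beta-catenin, at 0.40 (SE 0.11, limma adjusted p = 0.223) and Ctnnbip1, which blocks beta-catenin from binding Tcf factors, at 0.28 (SE 0.09, limma adjusted p = 0.248). For these 2 of the 73 genes (2.74%) the groups did not overlap, beside 3.3% of all genes. Tcf7l1 and the corepressor Tle3 were at -0.24 and -0.19. Other targets had 1 of 13, the matricellular gene Ccn1 at 0.64 (SE 0.17, limma adjusted p = 0.218), with Cd44 at -0.28, Sp5 at 0.16 and Fgf18 at -0.15.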

How the data were processed

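Femur RNA of 10 mice was measured on Agilent one-colour arrays. Per the file headers, the authors ran Agilent Feature Extraction 9.1.3.1 on the scans, and the deposited values are spot intensity on a linear scale, background-corrected and detrended within each array. The deposited series matrix holds the same intensity, rounded, and served as an alternative. Spots marked as outliers (97 in all) were left out, spots of a probe were averaged, and log2 values were scaled to the array's 75th percentile, which lay between 637 and 903 intensity units. The number of arrays limits the precision.

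A probe also had to be measured on at least 3 arrays per group. Probes were named through a RefSeq list of GRCm38.p6 (22951 by accession, 3109 by synonym, 6659 already current, 8455 as in the file). All 45 member names are current. Promoters are RefSeq's, and an entry was found for 31 members. The test was limma's (version 3.58.1, under R 4.3.3; lmFit and eBayes, two-sided) on all 38629 tested probes, with Benjamini-Hochberg adjustment. Files were read with R's data.table, version 1.17.8, correlations tested with 100000 permutations (scipy 1.17.1) and plots drawn with matplotlib 3.10.9. The fit was tested on simulated data with independent noise and no slide effect. That test does not bear on the confounding of group and slide. The labels number the animals separately, so the arrays are biological replicates.

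Values in every array are given for the genes of each role with the smallest p (3 ligands, 3 frizzled receptors, 3 secreted inhibitors, 2 R-spondins), for all tested feedback or target genes, and for the 3 genes with the highest correlation with a marker list. Of each other pathway list up to 4 genes with the smallest p are named, with Lgr4 added after its value was seen. Members and lists were chosen with earlier results of these data known. The alternatives covered background correction, scaling, the filter, the series matrix, slide, replicate number, body weight, the choice of probe and each array left out.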

Additional observations from a re-analysis of the deposited data

Results flagged for a closer look

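In 36 groups of 5 animals, the lowest and highest values of the members given animal by animal were set against Dixon's limit for 5 samples (0.71). Of the 36 groups 1 passed it, no more than chance gives at about 1 in 20 groups. Control 3 had the lowest Wnt3 signal of the control group, -2.76, with the nearest other control at -2.48, a gap that is 0.774 of the group's range. Without control 3 the Wnt3 difference was 0.40.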

How the results depend on the processing

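No member was called under any alternative. The smallest limma adjusted p was 0.110, for Wnt3. Relative to genes of like signal, a t-test with limma's SE, adjusted over the 18955 genes, gave an adjusted p of 0.0907 for Sfrp2. The count at an unadjusted p below 0.05, 8 as reported, was 4 with normexp background correction (9.08% of all genes) and 5 with slide as a fixed block (3.93% of all genes), and lay between 6 and 10 with an array left out. The median difference lay between 0.09 and 0.14 with an array left out and was 0.024 relative to genes of like signal. Members without overlap numbered 2 with the mean of all tested probes (3.18% of all genes), 2 without control 5 and unloaded 5 (7.69% of all genes), and 1 to 3 with an array left out (3.81% to 10.97% of all genes). The count of 11 other pathway genes was 2 with slide as a fixed block and 6 with body weight as a covariate, and lay between 7, without control 3, and 13. The share of all genes with an unadjusted p below 0.05 also changed with the setting. Counts given without that share cannot be set against the background. The 2 correlations became 0 with slide removed and 0 under quantile normalisation, and stayed 2 without unloaded animal 5.

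Of the 18 members given animal by animal, 4 turned sign somewhere: Apcdd1 (-0.016 under median scaling, -0.031 with body weight, -0.036 without control 5 and unloaded 5, and -0.033 to 0.18 with an array left out, negative without unloaded 5), Nkd2 (-0.065 with slide as a fixed block, -0.014 relative to genes of like signal), Axin2 (0.12 with slide as a fixed block) and Rspo3 (-0.0097 without control 5 and unloaded 5). The settings without those 2 arrays and relative to signal were chosen after seeing the data. The causes were not tested.

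With the replicate number as a block, 0 members were called and the median was 0.12. Same-numbered animals correlated at -0.05, 0.18, -0.11, -0.14 and 0.07, and 1 of the 5 numbers had its best match in its own number. These values show no pairing by number, and 5 numbers are too few to exclude it. Probes near the background, such as those of Wnt2b, Axin2 and Wnt3a, limit what could be seen of their genes.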
